A study of Mus musculus with 8 samples.

Results

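The 8 genes described here make, package, take up and break down glutamate and GABA, and were chosen by name: Slc17a7, Slc17a6, Slc17a8, Slc32a1, Gad1, Gad2, Slc6a11 and Abat. All 8 were among the 22430 genes of the deposited table and all 8 passed the filter on low counts, as did 16730 genes in all. The rule names genes by their function and has no threshold on a measured value, but the list was drawn up with earlier results of these data known, so its counts are a description. Poly(A) RNA was sequenced from brains of 8 male C57Bl/6JRj mice that received no treatment: 4 young adults of 6 months (6m) and 4 aged mice of 24 months (24m). The labels name the tissue both whole brain and brain hemisphere, each library came from 1 animal, and a second cohort of the study was not analysed here. In such bulk tissue, fewer cells of a type and less RNA per cell cannot be told apart.

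Glutamate is the main excitatory transmitter of the brain and GABA the main inhibitory one. GABA is made from glutamate by the 2 glutamate decarboxylases, encoded by Gad1 and Gad2. Vesicular transporters load each transmitter into synaptic vesicles: Slc17a7 (VGLUT1) serves mostly cortical, hippocampal and cerebellar neurons, Slc17a6 (VGLUT2) mostly thalamic and brainstem neurons, and Slc17a8 (VGLUT3) small populations that include serotonergic and cholinergic neurons. Slc32a1 (VGAT) loads GABA and glycine. After release, GABA is cleared by plasma membrane transporters such as Slc6a11 (GAT3), found mainly in astrocytes, and is broken down by the mitochondrial enzyme GABA transaminase, encoded by Abat.

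Total counts per library ranged from 63460940 to 103462414, and the deepest library was 24m replicate 1. That library also stood apart from its group: the chi-square per degree of freedom against the other 24m libraries was 182 to 425, compared with 13.1 to 61.8 among those 3 and 8.24 to 48.8 among the 6m libraries. Fold changes of the 8 genes are therefore also given without it, but not those of other genes. Across all genes tested, 25.3% were called higher and 18.3% lower in 24m, where a call needed a Benjamini-Hochberg adjusted value under the threshold of 0.05 in the edgeR quasi-likelihood test and a log2 fold change beyond 0.58 in either direction. Higher genes made up 58.1% of all calls, and 75.7% with library totals alone or 47.9% with quantile normalization, settings that put the median over all genes at 0.21 and -0.10 on the log2 scale. Among 13 lists of cell type markers, no marker was at 0 in any library. Counts of called markers, here and below, stand beside the shares of all genes called, 25.3% higher and 18.3% lower. No list was tested against these shares. The erythroid markers were lower in 24m (4 of 4 called, summed level 5412 to 7587 CPM in 6m and 1238 to 4143 CPM in 24m), and the part of this in the results below was not tested. CPM are counts per 1000000 library counts, scaled with TMM factors.

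Levels of 6 of the 8 genes rose with age and none fell: Abat, Gad2, Slc17a6, Slc17a8, Slc6a11 and Gad1, with log2 fold changes from 1.16 to 2.17. The remaining 2 were vesicular transporters, and had smaller log2 fold changes of 0.42 (Slc32a1) and 0.27 (Slc17a7). The median of the 8 log2 fold changes was 1.20, beside a median of 0.00 over all genes tested, and 6 of 8 called higher stand beside 25.3% of all genes. By the adjusted p alone 7 of 8 were higher, beside 32.7% of all genes. For 6 of the 8 genes every 24m library lay above every 6m library, beside 28.4% of all genes tested. Summed over the 8 genes, the level was 1648 to 2036 CPM in 6m and 2505 to 2609 CPM in 24m. Without 24m replicate 1 the same number of genes, 6, was called higher. The log2 fold changes were then 2.35 for Abat, 1.41 for Slc17a8, 1.27 for Slc6a11, 0.45 for Slc32a1 and 0.22 for Slc17a7, with the others given below.

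**Figure D1:**
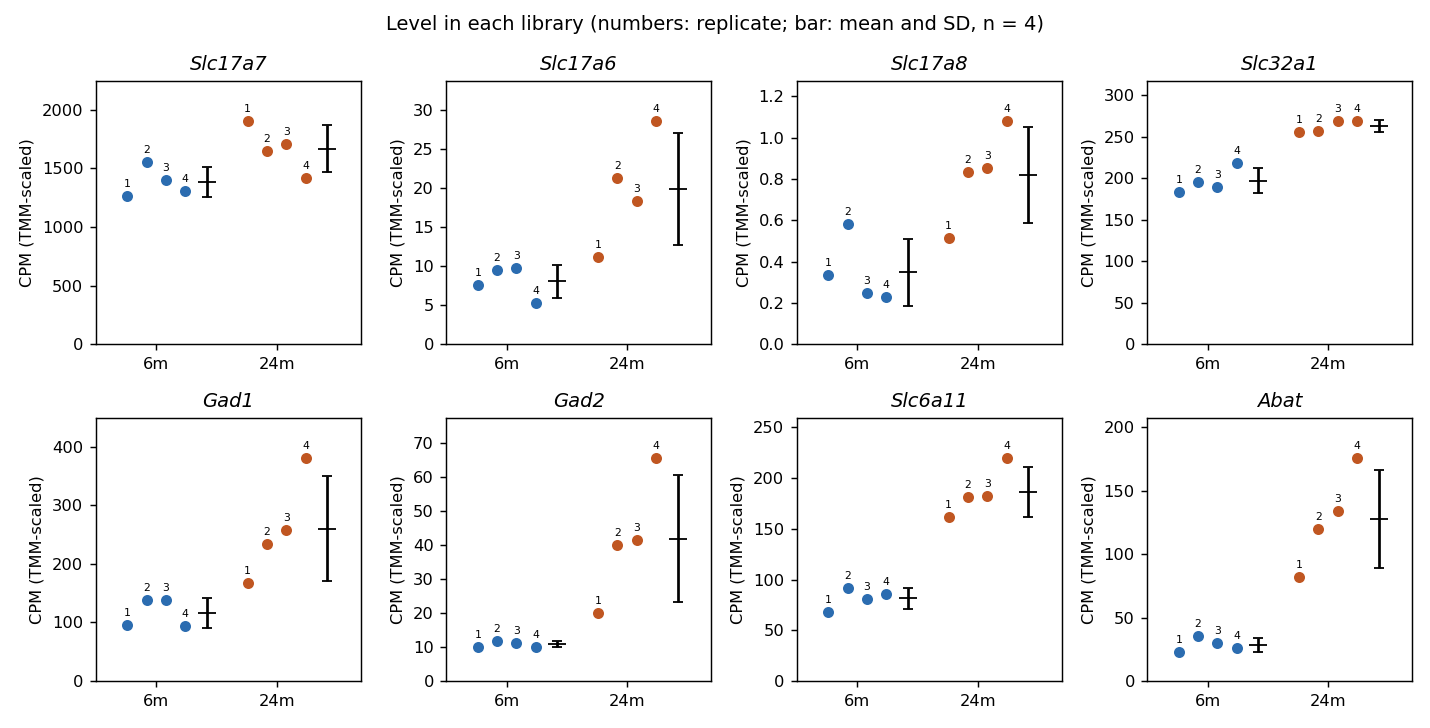
Level of each gene in TMM-scaled CPM (vertical axes, from 0) in the 4 libraries of each age, with points numbered by replicate and bars for mean and SD. Groups overlap for Slc17a7 and Slc17a8, and 24m replicate 1 is the lowest 24m library for 7 of the 8 genes.

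The upstream sequences of 4 of the 8 genes are shown first, those of GABA synthesis, uptake and breakdown that rose, to let their composition be compared. Each is the 250 bases before the start of the canonical transcript on GRCm39, written 5′ to 3′ on the strand of the gene, and holds no base of an annotated exon. Capitals mark matches on either strand to 4 short motifs: the TATA box (TATAAA), the CCAAT box (CCAAT), the GC box (GGGCGG) and the cAMP response element (TGACGTCA). None of the matches overlapped another.
Gad1, chr2:70391353-70391602, plus strand: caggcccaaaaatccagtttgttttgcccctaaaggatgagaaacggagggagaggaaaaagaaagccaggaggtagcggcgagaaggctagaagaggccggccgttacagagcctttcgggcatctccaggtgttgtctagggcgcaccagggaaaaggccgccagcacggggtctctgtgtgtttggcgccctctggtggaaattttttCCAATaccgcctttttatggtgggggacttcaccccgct
Gad2, chr2:22511612-22511861, plus strand: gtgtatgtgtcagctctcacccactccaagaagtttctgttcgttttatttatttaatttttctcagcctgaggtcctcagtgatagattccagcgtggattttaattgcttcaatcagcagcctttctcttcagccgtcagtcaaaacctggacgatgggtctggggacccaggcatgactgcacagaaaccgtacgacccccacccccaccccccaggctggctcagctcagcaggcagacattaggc
Slc6a11, chr6:114107950-114108199, plus strand: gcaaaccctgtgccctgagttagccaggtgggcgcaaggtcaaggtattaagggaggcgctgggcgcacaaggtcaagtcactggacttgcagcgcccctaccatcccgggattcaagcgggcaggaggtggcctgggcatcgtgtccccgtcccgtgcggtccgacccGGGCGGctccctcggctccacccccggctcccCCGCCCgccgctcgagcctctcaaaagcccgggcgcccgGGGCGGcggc
Abat, chr16:8330983-8331232, plus strand: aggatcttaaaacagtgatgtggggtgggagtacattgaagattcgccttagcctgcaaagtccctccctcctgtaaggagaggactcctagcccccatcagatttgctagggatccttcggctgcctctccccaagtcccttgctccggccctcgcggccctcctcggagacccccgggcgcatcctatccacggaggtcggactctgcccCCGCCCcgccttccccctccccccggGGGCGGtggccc

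The Slc6a11 window held 3 GC boxes and the Abat window 2, all within 81 bases of the start. The Gad1 window held 1 CCAAT box, 39 to 35 bases before the start, and the Gad2 window matched none of the 4 motifs. Among the same windows of 21770 protein-coding genes, 36.3% held a GC box, 36.5% a CCAAT box, 11.9% a TATA box and 1.69% a cAMP response element. The 4 windows ranged in GC content from 51.2% (Gad2) to 71.2% (Slc6a11), with 6 CpG dinucleotides in Gad2, 12 in Gad1, 14 in Abat and 24 in Slc6a11, beside medians of 53.2% and 8.00 over all windows. Of the 4 windows not shown, that of Slc17a7 held 1 GC box, 49 to 44 bases before the start, that of Slc17a6 held 1 TATA box on the other strand, and those of Slc17a8 and Slc32a1 matched none. All 250 bases of the Slc17a6 and Slc32a1 windows lay in an annotated exon, as did 19 bases of the Slc17a7 window. The Gad1 window lay within the annotated span of Gad1, before the start of its canonical transcript. Genes that rose and genes that were not called thus both had windows with a GC box and windows with no match. A match describes the letters and not a bound site.

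Of the genes for GABA synthesis, Gad2 encodes the decarboxylase (GAD65) enriched at nerve terminals and Gad1 the one (GAD67) spread through the cell. Gad2 (ENSMUSG00000026787, chromosome 2, 22511862 to 22583886, GRCm39) was at 10.1, 11.7, 11.3 and 9.91 CPM in 6m replicates 1 to 4. In 24m replicates 1 to 4 it was at 20.0, 40.1, 41.5 and 65.7 CPM. The 6m libraries were close together and the 24m libraries spread over 3.29-fold, all above the 6m libraries. Gad2 thus had a log2 change of 1.96 ± 0.29 (SE, n = 4 per age, edgeR adjusted p = 4.42e-04), a 3.89-fold rise, and 2.21 without 24m replicate 1.

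Gad1 (ENSMUSG00000070880, chromosome 2, 70383416 to 70432372) was at 94.8, 138, 138 and 93.8 CPM in 6m and at 167, 234, 258 and 381 CPM in 24m. The groups did not overlap, and 24m replicate 4 was again the highest library. Between ages the log2 difference for Gad1 was 1.16 ± 0.24 (edgeR adjusted p = 0.00240), 1.35 without 24m replicate 1 and 0.74 when the trend of fold change with gene length was removed. An antisense gene, Gad1os, shares 99 exonic bases with Gad1, and whether reads were counted by strand was not stated.

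The balance of the 2 decarboxylases was compared within each library, where library scaling has no part. Trends of fold change with gene length or GC content remain in such ratios. Gad1 and Gad2 had log2 fold changes of 1.16 and 1.96, and of 0.74 and 1.79 with the length trend removed. Counts per exonic kb of Gad1 over Gad2 gave ratios of 5.86, 7.37, 7.68 and 5.93 in 6m replicates 1 to 4. In 24m replicates 1 to 4 the ratios were 5.22, 3.66, 3.90 and 3.63. All 24m ratios were below all 6m ratios, with a log2 difference of -0.72. The two-sided exact permutation p was 0.0286, the smallest that 4 against 4 libraries allow, and 0.0571 after adjustment over the 4 ratios tested, so the difference did not pass 0.05 after correction. Gad2 made up 11.5 to 14.6% of the summed per-length level of both genes in 6m and 16.1 to 21.6% in 24m.

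Slc32a1, which loads GABA into vesicles in all GABAergic and glycinergic neurons, had a smaller fold change than the decarboxylases and a narrower spread among aged libraries, a difference that was not tested. It (ENSMUSG00000037771, chromosome 2, 158452605 to 158464883) was at 184, 196, 189.8 and 219 CPM in 6m and at 256, 257, 269 and 269 CPM in 24m. The groups did not overlap and the 24m libraries lay within 1.05-fold of each other. Its log2 fold change came to 0.42 ± 0.08 (95% interval 0.24 to 0.59, edgeR adjusted p = 0.00152), a 1.33-fold difference under the fold threshold. It reached the threshold with library totals alone (0.64) and with the GC trend removed (0.58). Exons of the antisense genes Gm14204 and Gm14205 overlap those of Slc32a1 over 302 and 697 bases.

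Beside these GABAergic genes, 4 of 10 markers of forebrain GABAergic neurons were called higher and 1 lower. Log2 fold changes of the 10 had a median of 0.35 and ran from -0.75 to 2.53. Their summed level was 60.3 to 93.2 CPM in 6m and 65.2 to 119 CPM in 24m. The marker with the most CPM, the transcription factor Dlx1, was at 18.8 CPM in 6m and at 16.0 CPM in 24m (log2 fold change -0.24, adjusted p by edgeR = 0.218). Of 6 striatal projection neuron markers 2 were called higher and none lower, with a summed level of 712 to 830.0 CPM in 6m and 579 to 814 CPM in 24m. Most of that sum was Ppp1r1b (DARPP-32), at 533 CPM on average in 6m and 465 CPM in 24m, with a log2 change of -0.20 (edgeR adjusted p = 0.268). The median log2 fold change of the 6 striatal markers was 0.05. The part of cell number in the GABAergic genes was not tested.

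Abat, whose enzyme converts GABA to succinic semialdehyde, had the largest fold change of the 8 genes. It (ENSMUSG00000057880, chromosome 16, 8331233 to 8439996) was at 22.6, 35.3, 29.8 and 25.9 CPM in 6m and at 82.2, 120.0, 134 and 176 CPM in 24m. The lowest 24m library was thus above the highest 6m library by more than the whole 6m range. On the log2 scale Abat differed by 2.17 ± 0.23 (edgeR adjusted p = 7.58e-05), a 4.50-fold rise, with 1.78 after removal of the length trend as its lowest value over 18 alternatives. No annotated exon of another gene overlaps those of Abat, Gad2, Slc6a11 or Slc17a8.

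Slc6a11 (ENSMUSG00000030307, chromosome 6, 114108200 to 114226913) was at 67.6, 91.8, 81.0 and 86.0 CPM in 6m and at 162, 181, 182 and 220.0 CPM in 24m. The groups did not overlap, and the spread within each age was 1.36-fold. Slc6a11 had a log2 change of 1.19 ± 0.12 (edgeR adjusted p = 7.28e-05), and ranged from 1.10 to 1.41 over 18 alternatives. Of the 10 astrocyte markers, 6 were called higher and 1 lower. The log2 fold changes of the 10 had a median of 0.69 and ran from -1.29 to 1.92. The astrocyte markers summed to 3188 to 4191 CPM in 6m and 2976 to 4182 CPM in 24m. Most of that sum was the glycolytic enzyme Aldoc, at 2507 CPM on average in 6m and 2057 CPM in 24m. Aldoc had a log2 change of -0.29 (edgeR adjusted p = 0.129). The part of astrocyte number in the Slc6a11 values was not tested.

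The balance of GABA uptake by Slc6a11 and breakdown by Abat was compared in the same way. Log2 fold changes of Slc6a11 and Abat were 1.19 and 2.17, and 1.16 and 1.78 with the length trend removed. The per-length ratio of Slc6a11 over Abat was 5.70, 4.96, 5.18 and 6.34 in 6m and 3.76, 2.87, 2.60 and 2.39 in 24m. The groups did not overlap, with a log2 difference of -0.95 (two-sided exact permutation p = 0.0286, adjusted over 4 ratios 0.0571), and the difference did not pass 0.05 after correction either.

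Of the 3 vesicular glutamate transporters, Slc17a6 and Slc17a8 rose, and Slc17a7 missed both thresholds, with an adjusted p near 0.05 that depended on the processing. Slc17a6 (ENSMUSG00000030500, chromosome 7, 51271434 to 51320867) was at 7.61, 9.55, 9.72 and 5.31 CPM in 6m and at 11.2, 21.3, 18.4 and 28.6 CPM in 24m. The groups did not overlap, but 24m replicate 1 was close to the upper 6m libraries. Aged libraries exceeded young ones by 1.30 ± 0.28 on the log2 scale (edgeR adjusted p = 0.00294), 1.52 without 24m replicate 1 and 1.04 with the GC trend removed. An antisense long noncoding RNA without a symbol shares 549 exonic bases with Slc17a6.

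Slc17a7 (ENSMUSG00000070570, chromosome 7, 44813305 to 44825644) was at 1262, 1554, 1397 and 1307 CPM in 6m and at 1901, 1650, 1706 and 1414 CPM in 24m. Per exonic length it had the highest level of the 8 genes, and its groups overlapped through 6m replicate 2 and 24m replicate 4. The log2 difference was 0.27 ± 0.11 (95% interval 0.02 to 0.53, edgeR adjusted p = 0.0593). With quantile normalization and DESeq2, the procedure nearest to that of the study, the value was 0.65 and passed both thresholds (DESeq2 adjusted p = 7.55e-09). Of 18 alternatives, 6 put the adjusted p alone under 0.05. Beside quantile normalization these were DESeq2 (log2 difference 0.27, DESeq2 adjusted p = 0.0377), edgeR with library totals alone (0.48, adjusted p = 0.00274) and edgeR with the GC trend removed (0.42, adjusted p = 0.00427). The other two were edgeR without 6m replicate 2 (0.34, edgeR adjusted p = 0.0420) and without 24m replicate 4 (0.35, edgeR adjusted p = 0.0197). Over all 18 the adjusted p ranged up to 0.146. The antisense gene Gm72144 shares 311 exonic bases with Slc17a7.

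Slc17a8 (ENSMUSG00000019935, chromosome 10, 89409882 to 89457326) had the lowest level, with 22, 41, 15 and 15 counts in 6m and 53, 67, 71 and 94 counts in 24m. These were 0.335, 0.58, 0.249 and 0.227 CPM in 6m and 0.512, 0.836, 0.853 and 1.08 CPM in 24m. The groups overlapped, since 6m replicate 2 lay above 24m replicate 1. Its log2 fold change was 1.22 ± 0.34 (95% interval 0.47 to 1.97, edgeR adjusted p = 0.0103). Beside it, 2 of 3 serotonergic markers were called lower and none higher, with a summed level of 7.0 to 17.2 CPM in 6m and 2.01 to 11.1 CPM in 24m.

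Slc17a7 made up most of the per-length counts of the vesicular glutamate transporters at both ages, with 99.3 to 99.6% in 6m and 98.0 to 99.4% in 24m. These levels were not corrected for exonic GC content, which was 56.53% for Slc17a7 and 43.31% for Slc17a6. The shares thus describe counts and not numbers of transcripts. The per-length ratio of Slc17a7 over Slc17a6 was 171, 168, 148 and 254 in 6m and 175, 80.1, 95.6 and 51.0 in 24m. In 24m replicate 1 the ratio was within the 6m range, and in the other 3 aged libraries it was below that range. The log2 difference was -1.0 (two-sided exact permutation p = 0.114, adjusted over 4 ratios 0.152), and ranged with 1 library left out from -1.31 without 24m replicate 1 (exact p = 0.0571, the smallest that 4 against 3 libraries allow) to -0.72 without 24m replicate 4 (exact p = 0.229).

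Markers of the regions where these transporters are used, and of neurons at large, are given beside them. Of 8 cortical and hippocampal excitatory markers 4 were called higher and none lower, with a summed level of 211 to 259.8 CPM in 6m and 246 to 311 CPM in 24m. The 7 cerebellar granule cell markers had 6 called higher and none lower, and their sum was 183 to 282 CPM in 6m and 358 to 387 CPM in 24m. Of 7 thalamic and brainstem markers 1 was called higher and none lower, with 109 to 122 CPM in 6m and 115 to 129.5 CPM in 24m. Of 6 pan-neuronal markers 1 was called higher and 2 lower, and their sum was 3065 to 3474 CPM in 6m and 2251 to 2681 CPM in 24m. The part of region and cell composition in the transporter values was not tested.

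The ratio of the main excitatory to the inhibitory vesicular transporter, Slc17a7 over Slc32a1, was 6.20, 7.16, 6.65 and 5.39 in 6m and 6.71, 5.79, 5.73 and 4.75 in 24m. The groups overlapped, and the log2 difference of -0.15 was within the spread of the libraries (two-sided exact permutation p = 0.343, adjusted over 4 ratios 0.343).

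**Figure D2:**
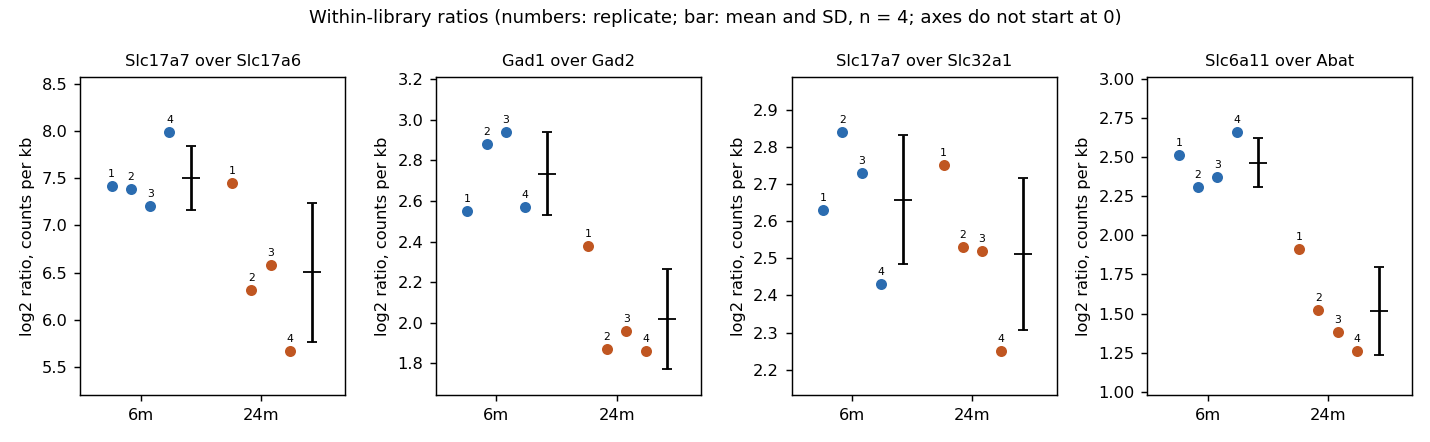
Log2 ratio of counts per exonic kb of 1 gene over another within each library (vertical axes, not from 0), with points numbered by replicate and bars for mean and SD (n = 4 per age). The ages separate for Gad1 over Gad2 and for Slc6a11 over Abat, and overlap for both ratios with Slc17a7.

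Compared per exonic length and without a correction for GC content, the 8 genes kept the same order at both ages. In 6m the means were 249 CPM per kb for Slc17a7, 39.4 for Slc32a1, 16.1 for Slc6a11, 11.2 for Gad1, 2.95 for Abat, 1.65 for Gad2, 1.41 for Slc17a6 and 0.0705 for Slc17a8. Neighbours in this order did not overlap between libraries in 6m, except Gad2 and Slc17a6. In 24m the means were 301, 52.5, 36.8, 25.0, 13.3, 6.41, 3.48 and 0.166 CPM per kb in the same order. There the libraries of Slc6a11 and Gad1, of Gad1 and Abat, of Abat and Gad2, and of Gad2 and Slc17a6 overlapped.

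Within 24m the libraries took similar places for most of these genes. For 7 of the 8 genes replicate 4 was the highest 24m library and replicate 1 the lowest, while for Slc17a7 the order was turned, with replicate 1 highest and replicate 4 lowest. The highest 24m library exceeded the lowest by 3.29-fold for Gad2, 2.55-fold for Slc17a6, 2.29-fold for Gad1 and 2.14-fold for Abat. For Slc32a1 the same spread was 1.05-fold.

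The genes whose log2 CPM followed each member most closely were found among 13538 genes averaging 1 CPM or more, over the 8 libraries, which share the age difference and the library effects. For Abat these were Mapre2, a microtubule plus-end binding protein, and Atf6, a sensor of endoplasmic reticulum stress (Pearson r = 0.999 for each), and 487 genes had r over 0.99. For Gad2 they were Ube4a, a ubiquitin ligase, and Arhgef12, a guanine nucleotide exchange factor (r = 0.999 for each), with 304 genes over 0.99. The closest to Slc17a6 were Ppfia2, a scaffold of the active zone, and Clasp2, a microtubule regulator (r = 0.999 for each), with 142 genes over 0.99. Slc6a11 was closest to Hacd3 (r = 0.997) and Clic4 (r = 0.996), and Gad1 to Lrp12 and Csrnp3 (r = 0.996 for each). Slc32a1 was closest to Pnma8b (r = 0.994) and C1qtnf1 (r = 0.99). Slc17a8 was closest to Tbc1d32 (r = 0.982) and Cxadr (r = 0.981), and Slc17a7 to Rcsd1 (r = 0.980) and Zbtb32 (r = 0.975), with no gene over 0.99 for either. The patterns of Abat and Gad2 were thus shared by many genes of these libraries.

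A further 35 genes of glutamate and GABA metabolism were described from a list, and all 35 were tested. Of these, 13 were called higher and 1 lower, beside 25.3% and 18.3% of all genes, and the median log2 fold change was 0.27. Without 24m replicate 1, 13 were called higher and 2 lower. By the adjusted p alone, 20 were higher, beside 32.7% of all genes, and 4 lower, for which the share of all genes was not counted.

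Glutamate supply was represented by 11 genes of glutamate synthesis and breakdown. Of these, 3 were called higher, near the 25.3% of all genes, and none lower, beside 18.3%. The counts of the smaller groups below stand beside the same shares. No group was tested against these shares. By the adjusted p alone, 8 of the 11 were higher, beside 32.7% of all genes, and 3 were lower, for which the share of all genes was not counted. The 3 lower ones, picked here after their values were seen, were Gpt, an alanine transaminase, at -0.48 ± 0.14 on the log2 scale (edgeR adjusted p = 0.0148), Prodh, proline dehydrogenase, at -0.41 ± 0.14 (0.0255), and Gls2 at -0.39 ± 0.09 (0.00377). Of these, Gls2 had every 24m library below every 6m library. Gpt2, a mitochondrial alanine transaminase, was at 22.1 and 39.6 CPM on average in 6m and 24m (log2 fold change 0.84 ± 0.14, adjusted p by edgeR = 8.03e-04). Glul, the astrocytic glutamine synthetase that makes glutamine from glutamate, had the most CPM of the list. It had 841 to 1074 CPM in 6m and 1232 to 1571 CPM in 24m without overlap, a log2 fold change of 0.50 ± 0.11 under the fold threshold (edgeR adjusted p = 0.00408).

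Glutamine carriers pass the precursor between astrocytes and neurons. Of 6 such genes 3 were called higher and 1 lower. Slc38a1, a glutamine importer, rose from 9.52 to 10.7 CPM in 6m to 24.1 to 57.2 CPM in 24m, or by 1.95 ± 0.22 on the log2 scale (edgeR adjusted p = 1.20e-04). Slc38a7, a lysosomal amino acid transporter, rose less, with 0.69 ± 0.08 (edgeR adjusted p = 1.06e-04). Slc38a5 fell from 1.91 to 3.05 CPM in 6m to 1.10 to 1.51 CPM in 24m (log2 fold change -0.90 ± 0.18, adjusted p by edgeR = 0.00194).

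Plasma membrane glutamate transporters clear the synapse, and 3 of 6 were called higher and none lower. Slc1a3 (GLAST), an astrocytic transporter, had levels of 43.8 to 73.2 CPM in 6m and 144 to 269 CPM in 24m, higher by 1.89 ± 0.21 on the log2 scale (edgeR adjusted p = 1.06e-04). Slc1a2 (GLT-1), the main astrocytic transporter of the forebrain, had levels of 38.4 to 46.8 CPM in 6m and 51.4 to 141 CPM in 24m. Its log2 fold change was 1.15 ± 0.25 (edgeR adjusted p = 0.00282), and the groups did not overlap. Of the 4 mitochondrial glutamate and aspartate carriers 1 was called higher, near the 25.3% of all genes. It was Slc25a13, with a log2 change of 0.62 ± 0.13 (edgeR adjusted p = 0.00297).

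On the GABA side, 1 of 3 further GABA uptake genes was called higher, and is not reported here by name. The other 2, Slc6a12 (BGT1) and Slc6a13 (GAT2), picked after their values were seen, were not called. Slc6a12 was at 2.19 to 3.99 CPM in 6m and 2.14 to 2.93 CPM in 24m, a log2 difference of -0.37 ± 0.19 (edgeR adjusted p = 0.115). For Slc6a13 the levels were 17.2 to 22.5 CPM and 11.8 to 21.1 CPM, a log2 difference of -0.26 ± 0.17 (edgeR adjusted p = 0.196). Of 3 further genes of GABA breakdown 1 was called higher, and of 2 genes that supply pyridoxal phosphate, the cofactor of the decarboxylases and of GABA transaminase, 1 was called higher.

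**Figure D3:**
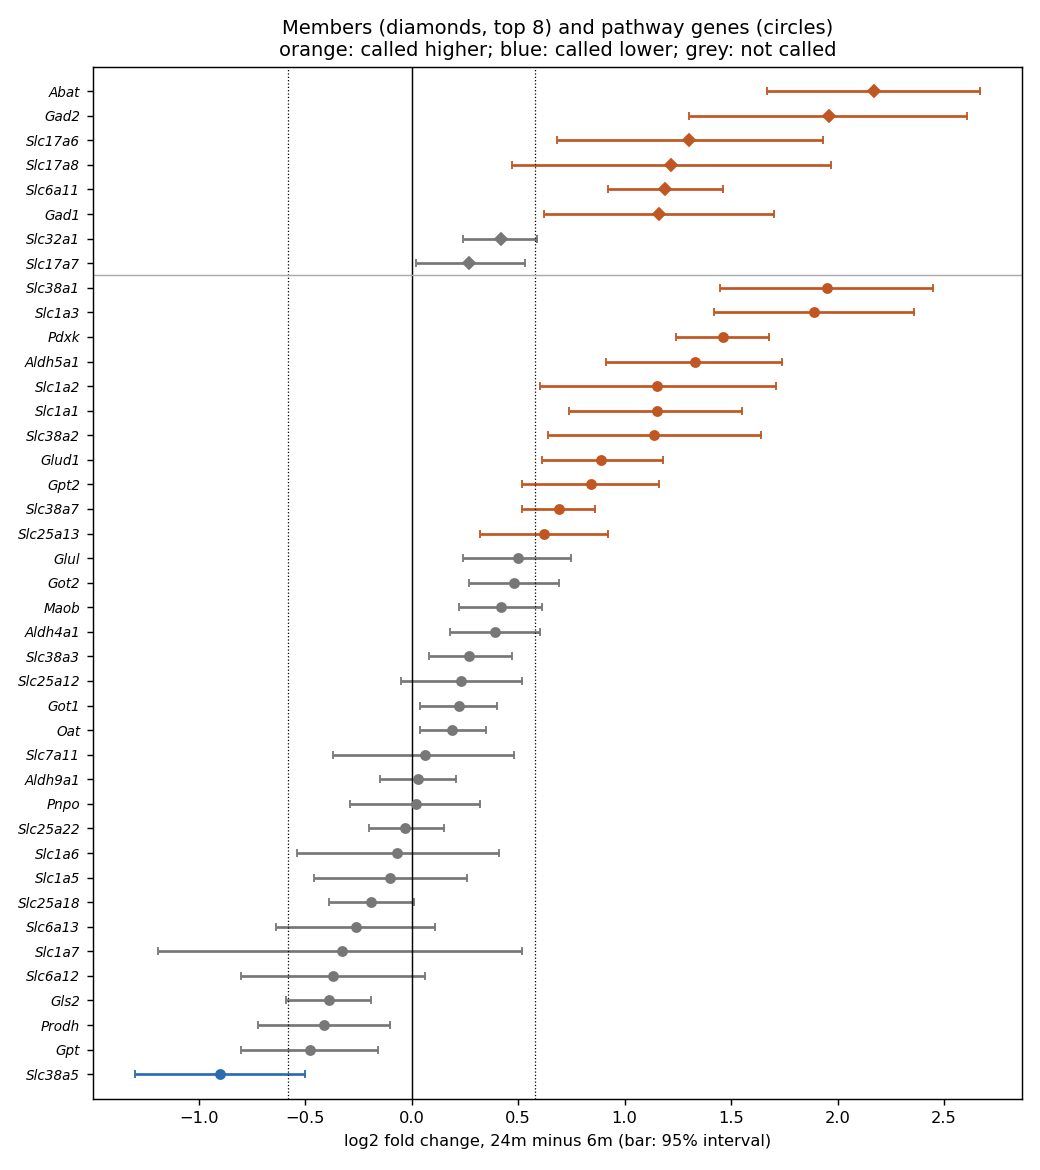
Log2 fold change of 24m over 6m with its 95% interval (horizontal axis) for the 8 genes (diamonds, above the line) and 33 of the 35 pathway genes (circles), with dotted lines at the fold threshold of 0.58. Of the 8 genes 6 are called higher, and of the pathway genes drawn 11 are called higher and 1, Slc38a5, lower.

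The fold changes of these genes were set beside the composition of their exons. Slc17a7 and Slc32a1, with the smallest fold changes, had the highest exonic GC contents of the 8 genes, 56.53% and 56.47%, while Slc17a6 had the lowest, 43.31%. The order did not hold throughout: Slc6a11 had the third highest, 54.26%, with a log2 fold change of 1.19, and Abat, with the largest fold change of 2.17, was at 48.42%. Across the 8 genes Pearson's r of log2 fold change with GC content was -0.69, and it was -0.49 across the 35 pathway genes and -0.20 across 16677 tested genes with an annotation. With log2 exonic length r was 0.52, 0.63 and 0.38 in the same sets. Genes of 1 library share its depth and quality, so these are descriptions across genes, which are not independent replicates. With the GC trend removed, log2 fold changes were 0.42 for Slc17a7, 0.58 for Slc32a1 and 1.04 for Slc17a6 beside 0.27, 0.42 and 1.30 before, and 1.31 for Slc6a11 and 2.06 for Abat. Removing a trend that falls with GC content raises genes of high GC content and lowers those of low GC content by construction. The part of composition in the differences among the 8 genes was not tested further.

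**Figure D4:**
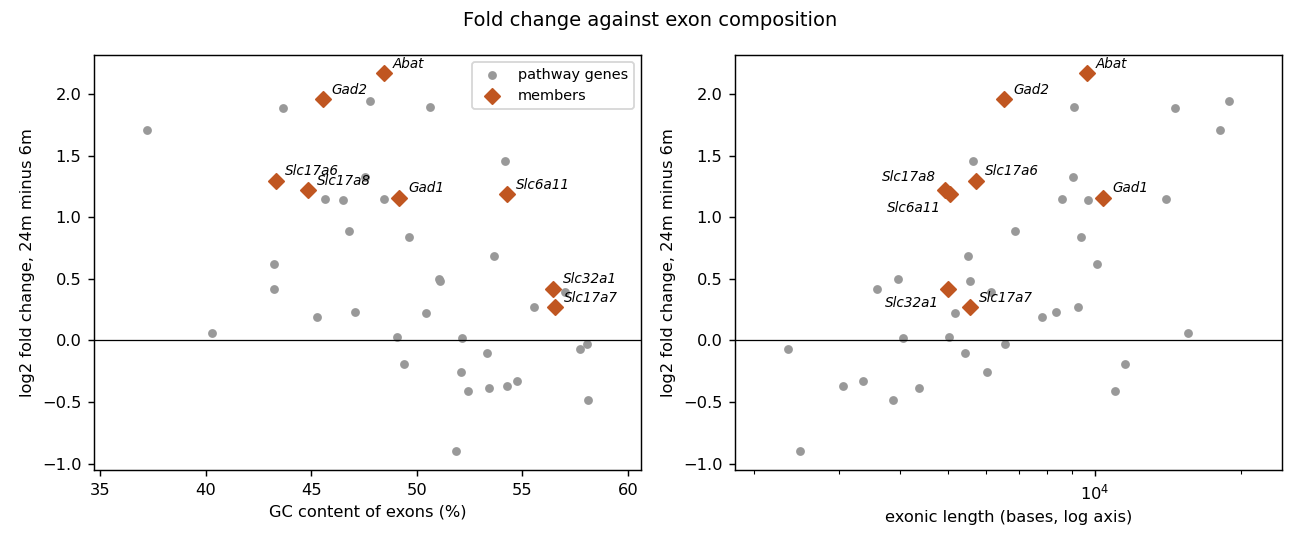
Log2 fold change of 24m over 6m (vertical axes) against exonic GC content in percent and exonic length in bases (log axis) for the 8 genes (diamonds) and 35 pathway genes (grey circles). Slc17a7 and Slc32a1 sit at the high end of GC content, with fold changes of 0.27 and 0.42.

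**Figure D5:**
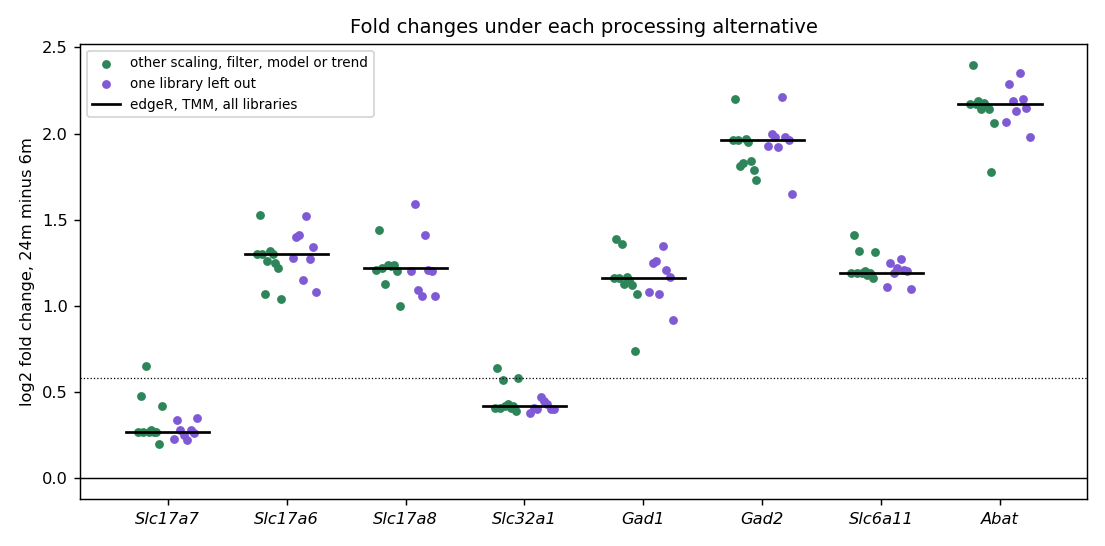
Log2 fold change of each of the 8 genes (vertical axis) with all libraries (black line), under other scalings, filters, models or trend removals (green), and with 1 library left out (purple). Every value is above 0, and the values of Slc17a7 and Slc32a1 lie on both sides of the fold threshold of 0.58 (dotted line) or at it.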

How the data were processed

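Poly(A) RNA of 8 brains was sequenced as directional paired-end libraries. Per the labels and the study's methods, the authors trimmed reads with Trim Galore 0.4.11, aligned them to GRCm39 with HISAT2 2.1.0 and counted them per gene with featureCounts. The deposited values are raw counts per Ensembl gene and library, with strand setting and multimapping reads not stated, so genes that overlap others carry that uncertainty. The members and lists were chosen with earlier results of these data known.

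Of 22430 genes, 22281 matched GENCODE M39, which gave symbols, exonic lengths and GC content on GRCm39. Genes were tested if 4 or more of the 8 libraries had over 5 counts, with edgeR 4.0.16 (R 4.3.3, TMM factors, age as the only term). A call needed adjusted p ≤ 0.05 and a log2 change beyond 0.58 in either direction. SE is the log2 change divided by the root of the F statistic. Ratios were compared by exact permutation (70 assignments, scipy 1.17.1). Named pathway genes were the 4 highest and 4 lowest fold changes among called genes, with Glul, Slc1a2 and Slc1a3, and 2 genes of this list are not reported here by name. The 2 most similar genes had the highest Pearson r of log2 CPM (prior count 2), leaving out clone and predicted names. Motifs were chosen after the values were seen.

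On simulated data for 24m against 6m (16730 genes, of which 200 were given a log2 change of 1), edgeR recovered 68%, 96.9% of those with low and 41.3% of those with high dispersion, with 5 unchanged genes called. Alternatives were other scalings, DESeq2 1.42.0, limma-voom (limma 3.58.1), other filters, trend removal, a replicate block and each library left out.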

Additional observations from a re-analysis of the deposited data

How the results depend on the processing

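The 6 called genes kept direction and call under every alternative that could be run, but Slc17a8 was not tested at a filter of 1 CPM, which leaves 5 members called. The alternatives for these 6 and the 2 uncalled genes gave no value below 0. Slc17a7 passed with quantile normalization and DESeq2 (0.65), and was at 0.48 with library totals alone (adjusted p = 0.00274, under the fold threshold). Slc32a1 passed with library totals alone (0.64) and with the GC trend removed (0.58). Members called higher numbered 5 to 7 over the alternatives with the fold threshold. Pathway genes called higher numbered 20 with no fold-change threshold, and those called lower numbered 4. Those called lower numbered 2 with quantile normalization or with the length trend removed, and 1 to 2 with 1 library left out (2 without 24m replicate 1). With 1 library left out the log2 ratio differences were -0.84 to -0.65 for Gad1 over Gad2 and -1.08 to -0.86 for Slc6a11 over Abat, each with an exact p of 0.0571, the smallest that 4 against 3 libraries allow. They were -1.31 to -0.72 for Slc17a7 over Slc17a6 and -0.23 to -0.06 for Slc17a7 over Slc32a1. With the replicate block the differences of Gad1 over Gad2 and Slc6a11 over Abat were -0.72 and -0.95 (exact sign-flip p = 0.125 for each, the smallest 4 pairs allow), which is a limit of the design. The cause of the other changes was not tested.

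Same-numbered libraries did not deviate together (correlations 0.271, 0.143, 0.078 and -0.348) and share only a number. With the replicate block edgeR called 6 members and 13 pathway genes higher, as without it, and 4112 genes higher instead of 4237. Low counts limit Slc17a8, with 15 to 94 counts per library.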

Other observations

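Among the 8 genes, the levels over the 8 libraries were most alike for Slc6a11 and Abat (Pearson r of log2 CPM 0.99), and for Gad2 and Abat and for Slc17a6 and Gad1 (0.98 each). The r of Slc17a7 with the other 7 genes ranged from 0.43 to 0.64, below that of any other pair among the 8. All pairs share the libraries and the age difference.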
